A study of Mus musculus with 8 samples.

Results

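The unfolded protein response and the targets of its transcription factor ATF4 were examined in the retina of mice lacking lysophosphatidylcholine acyltransferase 1 (Lpcat1), an acyltransferase that makes phosphatidylcholine from its lyso form. The gene set held 46 genes of the 20018 named genes on the array. They were chosen by name as the sensors, transcription factors and best-known targets of the response, with earlier results of these data known. Each gene was read from its probe with the highest mean level over the 8 arrays. Total RNA of the whole retina came from 2-week-old mice of strain C57BL/6, with 4 wildtype (Lpcat1 WT) and 4 knockout (Lpcat1 KO) samples on an array each. The study describes the knockout as global, so all retinal cell types lacked the gene by design. Per the study's methods, the KO line was made on C57BL6/N and crossed with C57BL6/J, and mice homozygous for the Crb1 mutation rd8 were not used. The labels do not say whether each replicate was 1 animal or a pool, so the spread given here is that between these samples. A whole retina mixes many cell types, and in such bulk RNA fewer cells of a type and less RNA per cell cannot be told apart.

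The endoplasmic reticulum (ER) folds secreted and membrane proteins, and in photoreceptor cells this load is high because the outer segment is renewed throughout life. When unfolded proteins accumulate, 3 sensors in the ER membrane respond. PERK (gene Eif2ak3) phosphorylates the translation factor eIF2α, which lowers protein synthesis in general and raises translation of ATF4. IRE1 (Ern1) splices the Xbp1 transcript so that the active factor XBP1 is made. ATF6 moves to the Golgi, where it is cut into a free transcription factor. ATF4 is also reached by other eIF2α kinases, so its targets report the wider integrated stress response. These first steps act on proteins and on splicing, and a probe for total transcript reads mainly the later, transcriptional layer. Whether loss of Lpcat1 brings ER stress in the retina is the question that these genes address.

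Each level below is a log2 processed signal less the array's own 75th percentile. Each difference is the KO mean less the WT mean, in log2 units, with limma's standard error (SE) or 95% interval. Testing was limited to probes that exceeded background clearly in all 4 samples of one or the other genotype. A gene was called when its Benjamini-Hochberg adjusted p over all 33975 tested probes was under 0.05 and its fold change over 1.2. Of 55681 probes, 35033 to 36373 were well above background on the WT arrays and 33116 to 35620 on the KO arrays, with 3 of the 4 KO arrays below every WT array (exact permutation test, two-sided p = 0.114). The part of this in the results was not tested. Lpcat1 itself was lower in KO (-0.46, SE 0.04, limma adjusted p = 0.0036), in the direction of the labels, although a hybridisation signal of 72.5% of WT remained at its probe. Whether that probe lies inside or outside the deleted part is not known here, so it is a limited check of the labels. The WT arrays shared a slide row and the KO arrays the other row, so row and genotype cannot be told apart.

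Few genes of the response differed between Lpcat1 WT and KO retinas, and those that did were small increases. Of the 46 genes, 44 were tested, and 3 were called: Eif2ak3 and Chac1 of the PERK-ATF4 branch and Derl3 of the ATF6 branch. All 3 were higher in KO (by 1.21-, 1.21- and 1.25-fold), and 0 were called lower. This is 6.82% of the tested members, where 3.48% of all tested genes were called (1.99% higher and 1.49% lower). At an unadjusted p under 0.05, 8 members were higher and 0 lower (10.9% of all genes were higher and 15.3% lower at this level). With no limit on the fold change Atf5 also passed the adjusted threshold, as did 6.63% of all genes. In 7 members the KO values lay above the WT values without overlap (15.9%), where this held for 8.78% of all tested genes. In 0 members did they lie below without overlap. Counted in either direction, 15.9% of the members and 21.2% of all tested genes were free of overlap. The 7 were Eif2ak3, Atf5, Chac1, Asns, Pdia3, Sel1l and Derl3. The calls lay close to the thresholds: all 3 were lost when arrays were scaled on the median or when dim probes were also tested, that of Eif2ak3 also under normexp background correction and the methods' t-test, and that of Chac1 with array weights.

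Most members stayed close to their WT level. Their median difference was 0.04, against -0.02 over all tested genes, and 32 of the 44 differences were above 0, where 42.2% of all genes were. Both values moved with the scaling and with single arrays. Without KO replicate 4 the median was 0.02 with 28 above 0, and without WT replicate 1 it was 0.03, again with 28. Under cyclic loess the median was 0.09 with 38 above 0, where the median of all genes was also above 0 (0.0097, with 53.6% of genes above 0). For 29 members (65.9%) the 95% interval lay within a 1.2-fold change in either direction, which also held for 63.6% of all tested genes. By branch the median was 0.07 for PERK-ATF4 (18 tested genes), 0.02 for IRE1-XBP1 (9 genes) and 0.03 for ATF6 (17 genes). Leaving out 1 array at a time took these medians from 0.04 to 0.08, from -0.0011 to 0.06 and from 0.0003 to 0.06, with the extremes without WT replicate 3 or KO replicates 1, 2 or 4. These ranges overlap, and no order of the branches is read from them. Several targets answer to both XBP1 and ATF6, and each was placed in 1 branch only.

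**Figure D1:**
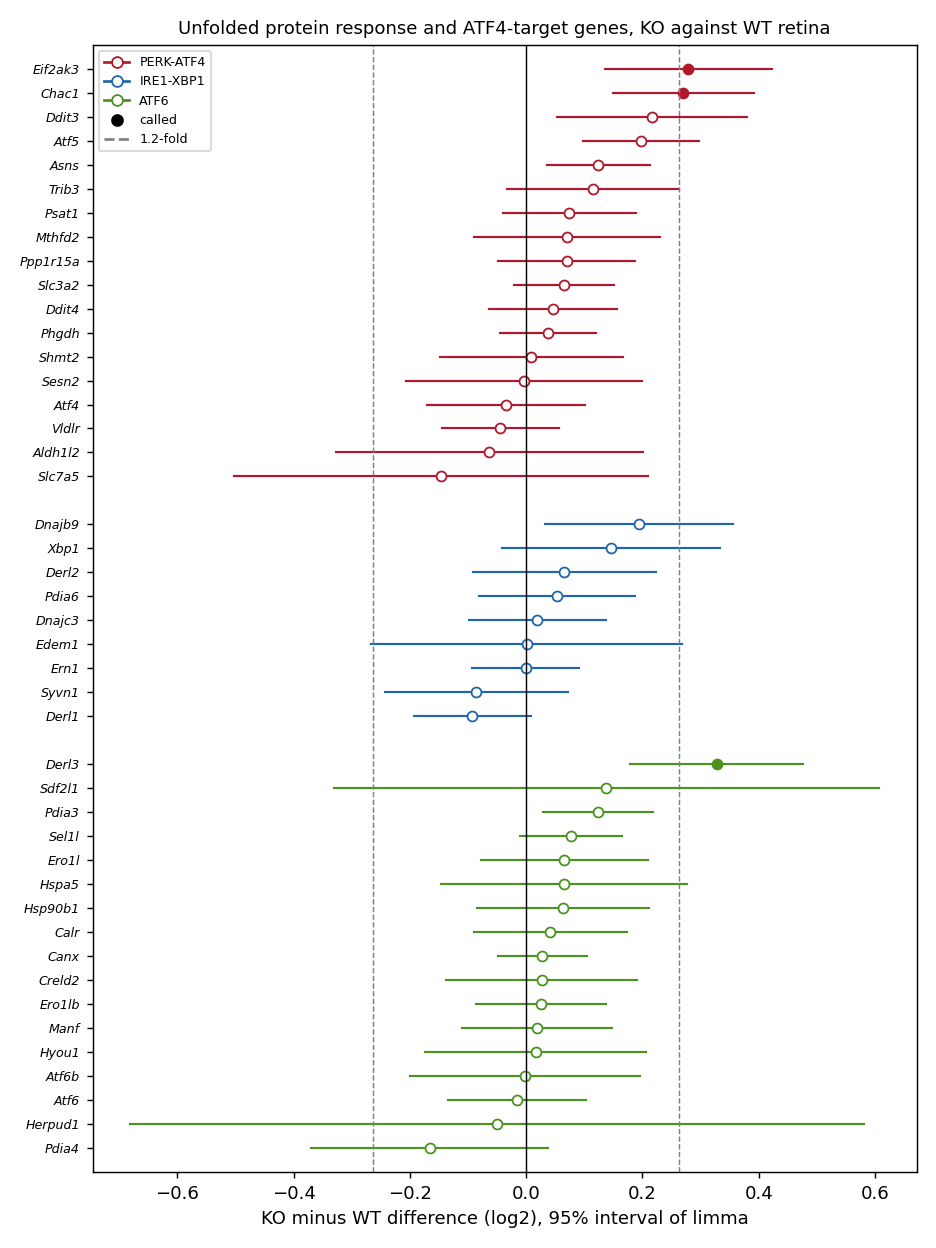
KO minus WT difference of each tested gene on the log2 scale (x axis, 4 arrays per genotype), with the 95% interval of limma as a line, grouped by branch. Filled points are the 3 called genes Eif2ak3, Chac1 and Derl3, dashed lines mark a 1.2-fold change, and the widest interval is that of Herpud1 (-0.68 to 0.58).

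**Figure D2:**
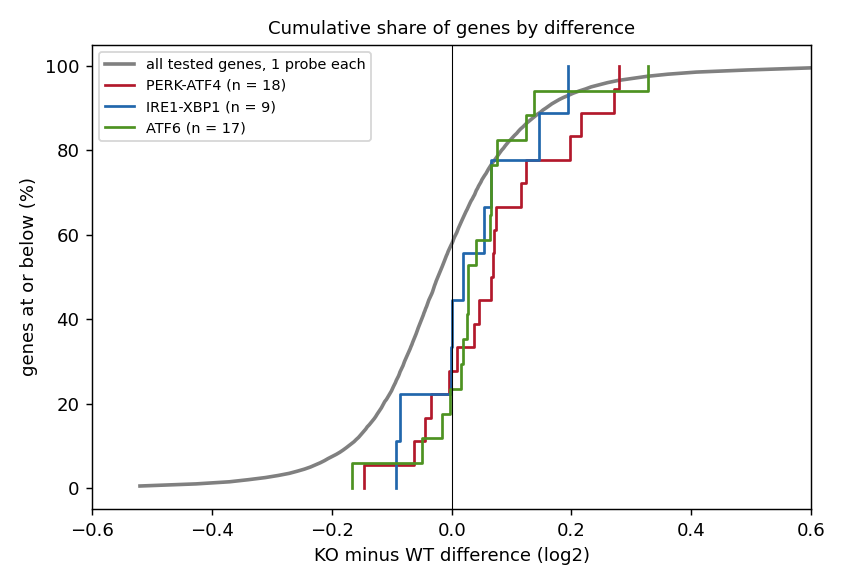
Cumulative share of genes (y axis, %) by KO minus WT difference (x axis, log2) for each branch and for all tested genes with 1 probe each. The branch medians are 0.07, 0.02 and 0.03, and that of all genes is -0.02.

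In the PERK-ATF4 branch the sensor itself was higher. Eif2ak3, which encodes PERK, stood at 0.24, 0.46, 0.43 and 0.49 in WT and at 0.60, 0.68, 0.76 and 0.68 in KO. The lowest KO value was above the highest WT value, and WT replicate 1 was the lowest of the 8. The difference was 0.28 (SE 0.06, limma adjusted p = 0.0437), close to the limit of a 1.2-fold change (0.26). The call held in 1 of the 8 fits that left out an array, that without KO replicate 1, and the difference ranged from 0.23 to 0.31 over these fits (adjusted p up to 0.105). With replicate number as a block it was not called either (adjusted p = 0.0584).

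None of the 3 transcription factors of this branch was called. Atf4, whose protein is controlled mainly at translation, had levels of 6.54, 6.71, 6.57 and 6.78 in WT and of 6.63, 6.57, 6.64 and 6.64 in KO. The genotypes overlapped, and the difference was -0.04 (95% interval -0.17 to 0.10), with 0.0017 at its other probe. Quantile normalization and cyclic loess turned its sign. Atf5, a relative of ATF4 that is also regulated at translation, stood at 3.38, 3.46, 3.47 and 3.41 in WT and at 3.56, 3.65, 3.59 and 3.69 in KO. These values did not overlap. The difference of 0.20 (SE 0.04) had a limma adjusted p of 0.0419 but was under a 1.2-fold change, so Atf5 was not called. Leaving out single arrays took its adjusted p as high as 0.108.

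Ddit3, which encodes CHOP, the factor tied to cell death under lasting ER stress, stood at 1.26, 1.45, 1.44 and 1.42 in WT. In KO its levels were 1.43, 1.61, 1.70 and 1.68. KO replicate 1 lay within the WT range and the other KO arrays above it. The difference was 0.22 (95% interval 0.05 to 0.38, limma adjusted p = 0.113), and it was not called. Without KO replicate 1 it was called (0.27, limma adjusted p = 0.0452). The interval allows a change of up to 1.30-fold.

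Among the stress and feedback targets, Chac1 was called and the other 5 were not. Chac1, an enzyme that breaks down glutathione, stood at -0.33, -0.15, -0.21 and -0.10 in WT and at 0.05, 0.09, 0.05 and 0.10 in KO. The KO values lay close together and above the WT values. The difference was 0.27 (SE 0.05, limma adjusted p = 0.0310). The call held in 2 of the 8 fits that left out an array (without WT replicate 4 or KO replicate 1), and it was lost with replicate number as a block (adjusted p = 0.0584). Trib3, a pseudokinase that feeds back on ATF4, had a difference of 0.12 (95% interval -0.03 to 0.26). For Ppp1r15a, the subunit that guides the eIF2α phosphatase, it was 0.07 (-0.05 to 0.19). Ddit4, a brake on mTORC1, had 0.05 (-0.06 to 0.16) and Sesn2, a stress-induced sestrin, -0.0040 (-0.21 to 0.20; its sign depended on the scaling). Vldlr, a lipoprotein receptor, had -0.04 (-0.14 to 0.06), and 0.01 at its dimmer probe, so its probes disagreed in sign.

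ATF4 acts on amino acid supply through a composite element for ATF and C/EBP factors. A scan of RefSeq promoters (GRCm38.p6, 250 bases before to 50 after the start) covered 40 of the 46 genes. Aldh1l2, Slc7a5, Derl1, Atf6, Hyou1 and Manf had no entry. The letters TGATGNAAN on either strand were found in 6 of the 40 genes and in 3.95% of all 32851 promoters, and 5 of the 6 belonged to the PERK-ATF4 branch. Counted by promoter, 13.6% of the 44 promoters of the 40 genes held a match. The members were chosen as known targets, so a share above that of all promoters is built into the choice of genes. The matches are shown 5′ to 3′ on the strand of the motif with its fixed letters in capitals, because they mark which members carry the best-known ATF4 element.
Asns (chr6:7693224-7693232, minus strand): TGATGaAAc
Chac1 (chr2:119351048-119351056, minus strand): TGATGcAAc
Herpud1 (chr8:94386316-94386324, minus strand): TGATGcAAc
Slc7a11 (chr3:50443653-50443661, plus strand): TGATGcAAa
Slc7a11 (chr3:50443671-50443679, minus strand): TGATGcAAa
Trib3 (chr2:152344039-152344047, plus strand): TGATGtAAa
Vldlr (chr19:27216819-27216827, minus strand): TGATGcAAc
The promoter of Chac1, the called gene of this group, is printed with the match in capitals, where the promoter strand reads the motif backwards.
Chac1 promoter (GRCm38.p6 chr2:119350992-119351291, plus strand): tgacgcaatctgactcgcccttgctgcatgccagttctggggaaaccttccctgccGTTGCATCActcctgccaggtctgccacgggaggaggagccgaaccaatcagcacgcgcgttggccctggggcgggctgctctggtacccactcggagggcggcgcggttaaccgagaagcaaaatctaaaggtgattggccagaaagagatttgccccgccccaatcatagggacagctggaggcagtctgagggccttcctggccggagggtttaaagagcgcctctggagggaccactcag
Of the 5 tested genes with a match, Chac1 was called. The median difference was 0.12 with a match and 0.06 over the other 33 tested genes in the promoter table. With only 5 genes that median is the value of Trib3, and the range was -0.05 for Herpud1 to 0.27 for Chac1. A match describes these letters and is not evidence of binding.

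The enzymes of amino acid and one-carbon synthesis were not called (0 of 6; limma, with 1 of the 6 at an unadjusted p under 0.05). Asns, asparagine synthetase, stood at 3.24, 3.16, 3.20 and 3.25 in WT and at 3.30, 3.36, 3.38 and 3.31 in KO. Its KO values lay above its WT values by a narrow margin, with a difference of 0.12 (SE 0.04, limma adjusted p = 0.0993). Of the serine synthesis enzymes, Psat1 had a difference of 0.07 (95% interval -0.04 to 0.19; 0.02 at its other probe) and Phgdh of 0.04 (-0.04 to 0.12). The other Phgdh probe stood apart between genotypes (0.15, limma adjusted p = 0.0616), so the probes of this gene disagree in size. The mitochondrial one-carbon enzymes Shmt2, Mthfd2 and Aldh1l2 had differences of 0.01, 0.07 and -0.06. Their intervals together ran from -0.33 to 0.23. Aldh1l2 had 1 WT array well below the other 3 (-3.65 against -3.29 to -3.27).

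Neither tested amino acid transporter was called, and for both the upper end of the interval lay below a 1.2-fold rise. Slc3a2, the shared heavy chain of these transporters, had a difference of 0.06 (95% interval -0.02 to 0.15). Slc7a5, its partner for large neutral amino acids, varied widely within genotypes, from 0.87 to 1.24 in WT and from 0.64 to 1.32 in KO. Its difference was -0.15 with an interval of -0.50 to 0.21, and its other probe had 0.0015. Slc7a11, the cystine transporter, did not clear background on a single array. Its processed signals lay between 4.53 and 6.33 in WT and between 4.08 and 16.2 in KO, and it has no fold change.

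**Figure D3:**
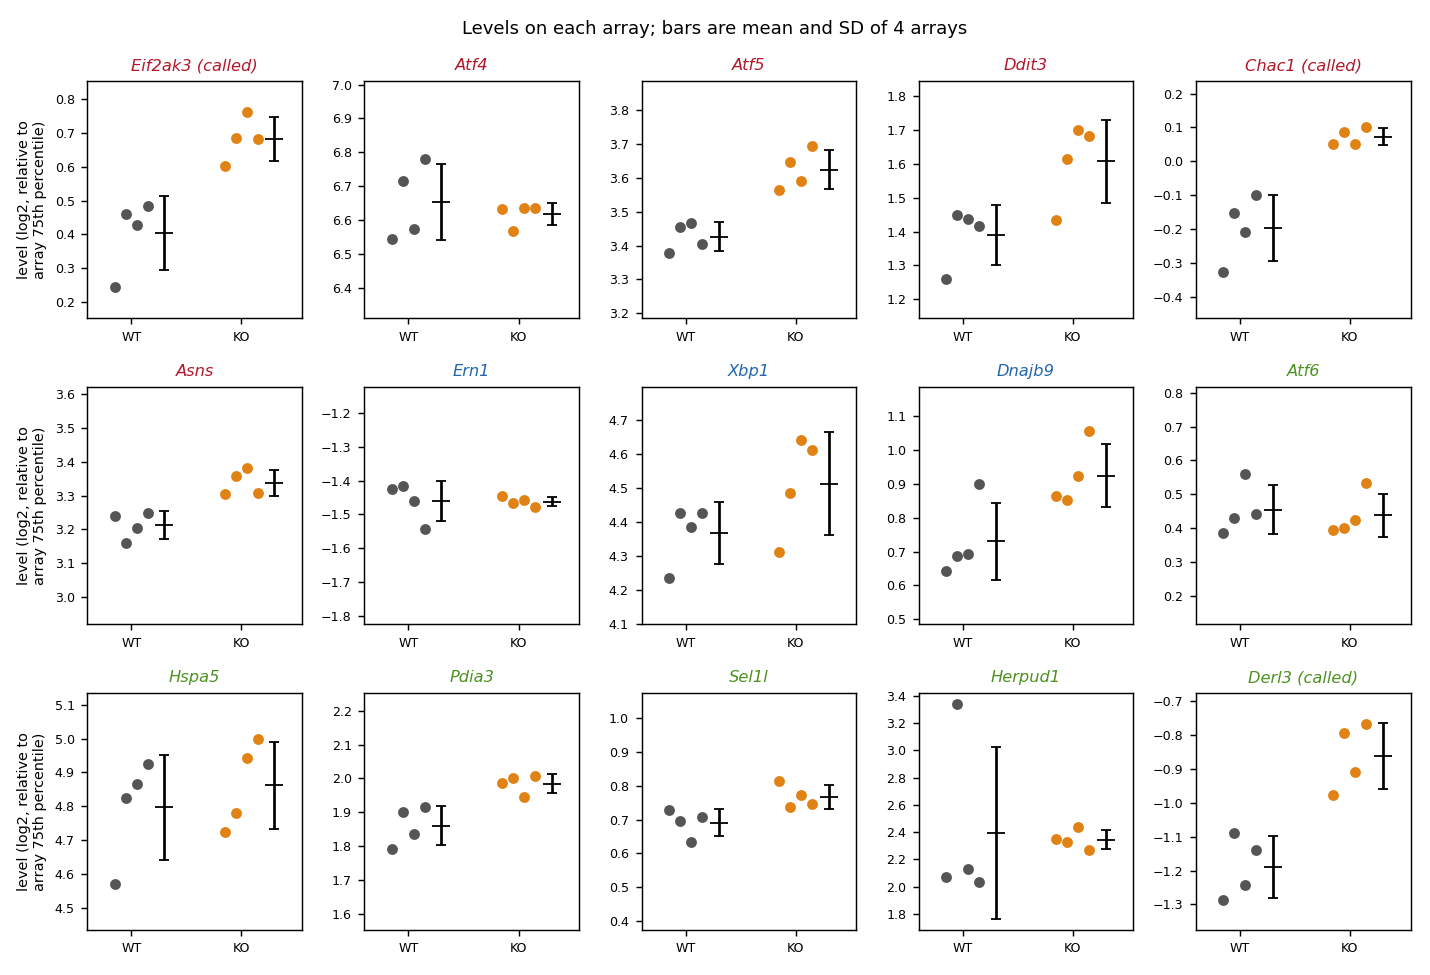
Level on each array (y axis, log2 relative to the 75th percentile of the array, a separate scale in each panel) for 15 genes, with WT in grey, KO in orange and mean ± SD of 4 arrays beside them. Eif2ak3, Chac1 and Derl3 part the genotypes and were called, Atf5, Asns, Pdia3 and Sel1l part them without a call, and 1 WT array of Herpud1 stands at 3.34 against 2.03 to 2.13 for the other 3.

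No gene of the IRE1-XBP1 branch was called (0 of 9 tested; limma, with 1 at an unadjusted p under 0.05), and in 0 of them were the genotypes free of overlap. Over all tested genes 3.48% were called and 21.2% were free of overlap in either direction, so counts of 0 among so few genes do not set the branch apart. Ern1, which encodes IRE1, stood at -1.42, -1.42, -1.46 and -1.54 in WT and at -1.45, -1.47, -1.46 and -1.48 in KO. The difference was -0.0010 (95% interval -0.09 to 0.09), and its sign depended on the scaling. Xbp1 had levels of 4.23, 4.43, 4.39 and 4.43 in WT and of 4.31, 4.49, 4.64 and 4.61 in KO. Its KO arrays ran both inside and above the WT range, with a difference of 0.15 (SE 0.08, limma adjusted p = 0.325). This value does not separate the spliced from the unspliced transcript, and splicing was not measured.

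Dnajb9 (ERdj4), a J-domain co-chaperone and a sensitive XBP1 target, stood at 0.64, 0.69, 0.69 and 0.90 in WT. In KO it stood at 0.87, 0.85, 0.92 and 1.06. Only WT replicate 4 reached into the KO range. The difference of 0.19 (95% interval 0.03 to 0.36) was not called (limma adjusted p = 0.143), and the dimmer Dnajb9 probe had 0.09. Dnajc3 (p58IPK), a co-chaperone that restrains PERK, had a difference of 0.02 (-0.10 to 0.14). Dnajb11, another co-chaperone, had no array well above background (signals between 4.17 and 13.9 in WT, between 4.37 and 6.47 in KO) and has no fold change.

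Genes that draw misfolded proteins out of the ER for degradation were not called in this branch (0 of 4; limma, with 0 at an unadjusted p under 0.05). Edem1, a lectin-like factor, had a difference of 0.0006 with a wide interval (-0.27 to 0.27), because its KO values ran from -0.99 to -0.36. For Syvn1, the ubiquitin ligase HRD1, it was -0.09 (-0.24 to 0.07). The channel proteins Derl1 and Derl2 had -0.09 (-0.19 to 0.01) and 0.07 (-0.09 to 0.22). The other Derl1 probe had 0.08 and the other Derl2 probes -0.04 and -0.03, so the probes of both genes disagreed in sign. Pdia6, a disulfide isomerase, had 0.05 (-0.08 to 0.19), and 0.12 at its other probe, which was not called either.

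In the ATF6 branch the main chaperones did not differ by the test. Hspa5 encodes BiP, the chaperone that holds the 3 sensors inactive and whose transcript is the common measure of ER stress. It stood at 4.57, 4.82, 4.87 and 4.92 in WT and at 4.73, 4.78, 4.94 and 5.0 in KO. The genotypes overlapped, and the difference was 0.06 (95% interval -0.15 to 0.28, limma adjusted p = 0.710). A rise of more than about 1.21-fold lies outside this interval. Without WT replicate 1 the difference was -0.01. Hsp90b1 (GRP94) had 0.06 (-0.08 to 0.21), and the lectin chaperones Calr and Canx had 0.04 (-0.09 to 0.17) and 0.03 (-0.05 to 0.10). Hyou1, a large chaperone that helps BiP release nucleotide, had 0.02 (-0.17 to 0.21). Sdf2l1, a BiP co-factor, spread from -1.66 to -1.19 in WT and from -1.68 to -0.76 in KO, and its interval of -0.33 to 0.61 was too wide to show a change of this size.

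The sensors themselves were close to WT. Atf6 stood at 0.39, 0.43, 0.56 and 0.44 in WT and at 0.40, 0.40, 0.42 and 0.53 in KO. Its difference was -0.02 (95% interval -0.14 to 0.10), and that of its relative Atf6b was -0.0023 (-0.20 to 0.20). The sign of both depended on the scaling. Manf and Creld2, secreted or luminal proteins released under ER stress, had 0.02 (-0.11 to 0.15) and 0.03 (-0.14 to 0.19).

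The called gene of this branch was Derl3, a derlin with low abundance in many tissues. It stood at -1.29, -1.09, -1.24 and -1.14 in WT and at -0.98, -0.79, -0.91 and -0.77 in KO. Its KO values lay above its WT values, and the difference was 0.33 (SE 0.06, limma adjusted p = 0.0322). It was the only called member that kept its call with replicate number as a block (adjusted p = 0.0419). When arrays were left out in turn, the call held in 1 of 8 fits (without KO replicate 1; adjusted p up to 0.0875 in the others), while the difference stayed between 0.30 and 0.37. Sel1l, the adaptor of the HRD1 ligase, also parted the genotypes, at 0.73, 0.69, 0.63 and 0.71 in WT and 0.81, 0.74, 0.77 and 0.74 in KO. That difference was 0.08 (SE 0.04, limma adjusted p = 0.272).

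Herpud1, a short-lived ER membrane protein of the same degradation pathway, depended on 1 array. Its levels were 2.07, 3.34, 2.13 and 2.03 in WT and 2.35, 2.33, 2.44 and 2.27 in KO. WT replicate 2 was more than 1 log2 unit above the other 3 WT arrays. Over all 8 arrays the difference was -0.05 with an interval of -0.68 to 0.58. Without WT replicate 2 the sign turned, the KO values lay above the remaining WT values, and the difference was 0.27 (limma adjusted p = 0.0683), again not called.

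The oxidative folding enzymes of this branch were not called (0 of 4; limma, with 1 at an unadjusted p under 0.05). Pdia3 (ERp57), the isomerase that works with calreticulin and calnexin, stood at 1.79, 1.90, 1.83 and 1.91 in WT. In KO it stood at 1.99, 2.00, 1.94 and 2.01, above the WT arrays. The difference was 0.12 (SE 0.04, limma adjusted p = 0.116). Pdia4 (ERp72) went the other way, with -0.17 (95% interval -0.37 to 0.04), and its WT values were the more scattered, from -0.01 to 0.38. The oxidases Ero1l and Ero1lb had 0.07 (-0.08 to 0.21) and 0.03 (-0.09 to 0.14).

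The ER stress element is the site through which ATF6, together with NF-Y, acts on chaperone promoters. Its letters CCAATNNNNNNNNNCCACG, on either strand, were found in 10 of the 40 genes with a promoter entry and in 0.119% of all promoters. Of these genes, 7 belonged to the ATF6 branch and 3 to the IRE1-XBP1 branch. Counted by promoter, 22.7% of the 44 promoters of the 40 genes held a match. The members were chosen as known targets, so a share above that of all promoters is built into the choice of genes. The matches are listed 5′ to 3′ on the motif's strand, with the fixed letters in capitals, because they group the genes that share this element whatever their expression.
Calr (chr8:84847075-84847093, plus strand): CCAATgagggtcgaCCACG
Canx (chr11:50325800-50325818, minus strand): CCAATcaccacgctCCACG
Creld2 (chr15:88819520-88819538, minus strand): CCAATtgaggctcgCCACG
Derl3 (chr10:75893242-75893260, minus strand): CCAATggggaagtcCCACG
Dnajc3 (chr14:118937827-118937845, plus strand): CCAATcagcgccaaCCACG
Ero1lb (chr13:12565682-12565700, minus strand): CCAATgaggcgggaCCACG
Hsp90b1 (chr10:86705533-86705551, plus strand): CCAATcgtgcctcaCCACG
Hsp90b1 (chr10:86705638-86705656, minus strand): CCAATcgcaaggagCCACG
Hspa5 (chr2:34772025-34772043, plus strand): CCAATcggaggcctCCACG
Pdia6 (chr12:17266491-17266509, plus strand): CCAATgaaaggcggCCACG
Syvn1 (chr19:6046532-6046550, plus strand): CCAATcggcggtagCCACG
Hsp90b1 held 2 matches. The promoter of Derl3, the called gene among them, is printed with its match in capitals, read backwards on the promoter strand.
Derl3 promoter (GRCm38.p6 chr10:75893148-75893447, plus strand): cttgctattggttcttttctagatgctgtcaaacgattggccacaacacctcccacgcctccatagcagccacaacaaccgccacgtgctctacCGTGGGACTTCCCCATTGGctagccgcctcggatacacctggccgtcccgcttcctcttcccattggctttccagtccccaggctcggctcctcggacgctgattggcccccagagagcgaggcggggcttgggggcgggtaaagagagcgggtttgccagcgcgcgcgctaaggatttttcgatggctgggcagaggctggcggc
The 10 genes with the element had a median difference of 0.03 and ranged from -0.09 for Syvn1 to 0.33 for Derl3. The 28 other tested genes in the promoter table had a median of 0.07. Apart from Derl3, the genes that share the element thus lay between -0.09 and 0.06. The letters TGACGTGG, bound by XBP1 and ATF6, were found in 0 of the 40 genes in these windows and in 0.676% of all promoters. Eif2ak3 held no match to any of the 3 motifs.

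Some of the spread within genotypes was shared by the members. WT replicate 1 was the lowest WT array for 28 of the 44 members, and KO replicate 1 was the lowest KO array for 21. Over all tested genes these shares were 36.6% and 33.6%, against 63.6% and 47.7% of the members. In the ATF6 branch these counts were 12 and 10 of 17 genes. For 17 of the 44 members replicate 1 was lowest in both genotypes, among them Hspa5, Hsp90b1, Creld2, Manf and Xbp1, and also Eif2ak3, Atf5, Ddit3 and Derl3. This pattern was noticed after the values were seen. For Hspa5 the SD between arrays was 0.16 in WT and 0.13 in KO, where the genotypes differed by 0.06. Same-numbered arrays lay in the same column of the slide, so the column and the replicate cannot be told apart.

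**Figure D4:**
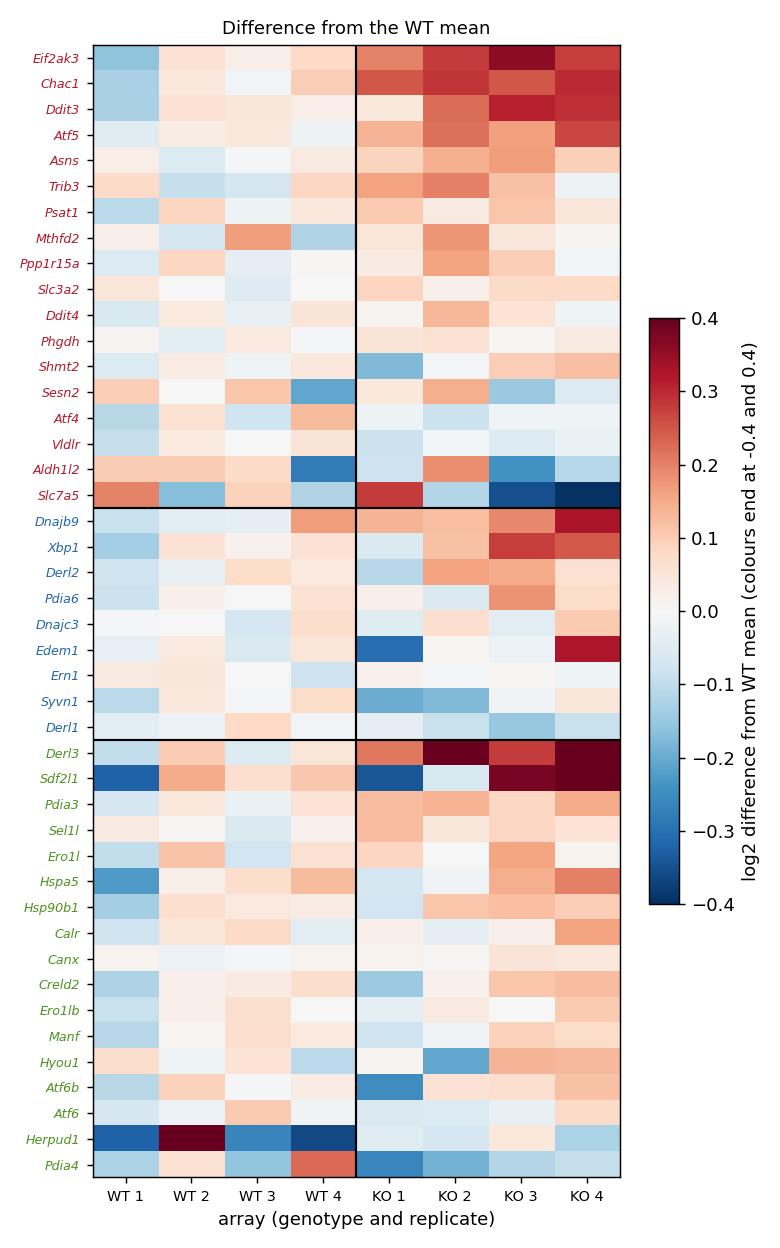
Difference of each array from the WT mean of the gene (colour, log2, ending at -0.4 and 0.4) for the 44 tested genes (rows, by branch and difference) and 8 arrays (columns). The rows of Eif2ak3, Chac1, Ddit3, Atf5 and Asns are red in all 4 KO columns, while those of Hspa5, Hsp90b1, Creld2 and Manf are blue in replicate 1 of both genotypes.

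Other genes of the pathway were counted in lists. These lists were chosen with earlier results of these data known, so their shares are description and not a test of the pathway. Of 38 further ATF4 targets tested, 10 were higher and 1 lower at an unadjusted limma p under 0.05 (10.9% and 15.3% of all genes). Of the same 38, 4 were called higher and 0 lower (10.5%, where 1.99% of all genes were called higher and 1.49% lower), and the median difference was 0.03. The 4 were Atf3 (0.75, SE 0.06, limma adjusted p = 0.0025), a stress-induced factor, Cebpb (0.54, SE 0.04), Nupr1 (0.51, SE 0.08) and Slc7a3 (0.34, SE 0.07), a transporter of basic amino acids. Atf3 and Cebpb also answer to immediate early and inflammatory signals and are not particular to ATF4. Gdf15, a secreted stress marker, had 0.33 (limma adjusted p = 0.0643). Of 29 further IRE1-XBP1 genes, mostly of the translocon and signal peptidase, 0 were called by limma (7 at an unadjusted p under 0.05, all 7 lower, where 15.3% of all genes were lower at this level). Their median was -0.07, and 21 of the 29 were below 0, as were 57.8% of all genes. Of 16 further degradation genes 0 were called (4 at an unadjusted p under 0.05, each lower, against the same 15.3%; median -0.06). Vimp (-0.18, limma adjusted p = 0.0340) was under a 1.2-fold change. The 24 further folding genes, 11 genes for eIF2α kinases, phosphatases and eIF2B, and 8 genes of ER stress cell death had medians of -0.02, -0.03 and -0.00029, with 0 called in each by limma (at an unadjusted p under 0.05, 3 higher and 3 lower, 0 and 1, and 1 and 1, where 10.9% of all genes were higher and 15.3% lower). Itpr1, a calcium release channel of the ER counted in the cell death list, had 0.25 (limma adjusted p = 0.0144) without overlap and was also under a 1.2-fold change. Casp12, the caspase tied to ER stress in rodents, stayed near background throughout.

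Summed marker levels of several cell types differed between genotypes. These are sums of RNA, weighted to the brightest genes, and do not count cells. The retina label was borne out by its markers, with all 13 rod and 9 cone genes tested. The summed level of the rod genes, as a multiple of the 75th percentile, was 2508 to 2603 in WT and 2100 to 2275 in KO. Those of Müller glia (9 genes) were 342 to 360 and 409 to 417, and those of microglia and macrophages (12 genes) 16.2 to 17.7 and 20.5 to 21.6. Of these lists 4 rod genes were called lower, and 3 Müller glia and 7 microglia genes higher, where 3.48% of all tested genes were called. Of the rod genes 12 had a difference below 0 and 1 above (Gngt1, 0.06). Of the Müller glia genes 8 had one above 0 and 1 below (Slc1a3, -0.04). Cone genes (208 to 214 against 237 to 248, 2 of 9 called higher) and genes of amacrine, horizontal and ganglion cells (163 to 166 against 174 to 177, 0 of 10 called) were also higher in KO without overlap. The sums for bipolar cells, the retinal pigment epithelium (13.9 to 18.0 against 14.6 to 18.0, 1 of 7 tested genes called), lens and blood overlapped. Every listed marker with a probe was well above background on at least 1 array. The part of these shifts in the differences of Eif2ak3, Chac1 and Derl3 was not tested.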

How the data were processed

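Each whole-retina RNA sample was labelled with Cy3 and hybridised by the authors to an Agilent SurePrint G3 mouse array (design on mm9), and Feature Extraction 10.7.1.1 quantified the scan. In the scanner output that the authors deposited, values are intensity on a linear scale for 62976 spots, background-subtracted and not scaled between arrays. The deposited table of the series holds log2 values after the authors' 75th percentile shift in GeneSpring. It differed from the levels computed here by a constant of 0.12 to 0.15 per array (SD at most 3.01e-07) and served as an alternative.

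For the levels, the 75th percentile was taken per array across the 59305 non-control spots and subtracted from log2 processed signal. The 3671 control spots and 86 to 147 outlier spots per array were left out, repeated spots were averaged, and 0 spots were saturated. Probes were named through RefSeq transcript accessions (26413 of 55681 probes), with Ero1l and Ero1lb matched to their current symbols. The RefSeq assembly, GRCm38.p6, is not that of the array's design and gave names and promoters only. The KO-WT contrast was fitted in R 4.3.3 by limma 3.58.1 (lmFit, then eBayes) with no covariate. The fit was tested on simulated arrays with the means and spreads of these data and 50 probes changed at each size. It called 13 of 50 at a log2 change of 0.3, 35 at 0.5, 44 at 1 and 50 at 2, and 10 unchanged probes. Most changes of 0.3 were thus missed, so a member not called here may still differ by such an amount.

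The members and lists were chosen with earlier results of these data known. Shown with all 8 values are called members, members without overlap and 11 fixed genes. Of other lists, called genes are named (up to 5), and Gdf15, Vimp, Itpr1 and Casp12 were chosen after their values were seen. Alternatives were other scalings, a background correction, filters, array weights, the replicate block, other fold limits and leaving out each array. The number of arrays limits the precision.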

Additional observations from a re-analysis of the deposited data

Results flagged for a closer look

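In 6 of the 88 sets of 4 arrays examined (44 members in each genotype), 1 array stood far from the other 3 by Dixon's criterion, and chance flags about 1 in 20. For Herpud1, WT replicate 2 was at 3.34, where the other WT arrays were at 2.03 to 2.13. Atf4 (6.57 against 6.63 to 6.64) and Slc3a2 (4.53 against 4.59 to 4.60) were lowest in KO replicate 2. Atf6b (0.19 against 0.50 to 0.56) and Hsp90b1 (4.68 against 4.86 to 4.88) were lowest in KO replicate 1. For Aldh1l2, WT replicate 4 was at -3.65, against -3.29 to -3.27.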

How the results depend on the processing

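The calls of Eif2ak3, Chac1 and Derl3 depended on the setting. Over all probes the number called was 993, and it was 246 with no filter on dim probes, 395 with replicate number as a block, 1870 with no minimum fold change and 139 at a fold change over 1.5. When arrays were left out in turn, it ranged from 391 (without WT replicate 2) to 1183 (without KO replicate 1). Of the members, 0 were called with a median shift, with no filter or at a fold change over 1.5, 1 with the replicate block, and 0 to 4 when arrays were left out. For PERK-ATF4 these were 0, 0, 0 and 0, with 1 under normexp, the methods' t-test and array weights, and 0 to 3 when arrays were left out. For ATF6 they were 0, 0 and 0 (1 with the block) and 0 to 1 when arrays were left out. IRE1-XBP1 had 0 in each. Without WT replicate 1, 2 or 3 or KO replicate 2, 3 or 4, 0 members were called, and without WT replicate 4 Chac1 alone. Branch medians ranged from 0.04 to 0.10 (PERK-ATF4), from -0.0011 to 0.06 (IRE1-XBP1) and from 0.0003 to 0.09 (ATF6). Lpcat1 (-0.46) was called lower except at a fold change over 1.5. The labels do not say that a replicate number marks a shared litter or day. Deviations of same-numbered arrays correlated at 0.04 to 0.25, not all over the 0.1 set for pairing, so the fit reported has no block, although same-numbered arrays also share a slide column. For 3 of the 4 numbers the best correlation was with the same number, a hint of pairing from the data and not from the design.

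Differences near 0 changed sign. Atf4 was 0.0363 under quantile normalization and 0.0435 under cyclic loess. Sesn2 was 0.0194 and 0.0212 under these, 0.015 with the percentile of detected probes, 0.00643 with a median shift, 0.0017 under normexp, 0.00303 with array weights and 0.00811 in the authors' values. Vldlr was 0.0147 under quantile normalization and 0.00824 under cyclic loess. Ern1 was 0.0118 and 0.0235 under these, 0.0179 with the percentile of detected probes, 0.00937 with a median shift and 0.011 in the authors' values. Atf6 was 0.00257 with that percentile and 0.000271 under cyclic loess. Atf6b was 0.0132 under quantile normalization, 0.0143 under cyclic loess, 0.0167 with that percentile, 0.00811 with a median shift and 0.00978 in the authors' values. Under normexp Aldh1l2 was 0.00981, Edem1 -0.000418 and Ero1lb -0.0155, and with array weights Hyou1 was -0.00233. Leaving out arrays in turn gave -0.0717 to 0.00754 for Atf4, -0.073 to 0.0438 for Sesn2, -0.0292 to 0.0701 for Shmt2, -0.0287 to 0.0143 for Ern1, -0.00939 to 0.0422 for Dnajc3, -0.107 to 0.102 for Edem1, -0.0476 to 0.0184 for Atf6 and -0.0425 to 0.0801 for Atf6b. It gave -0.0102 to 0.11 for Hspa5, -0.023 to 0.0912 for Hyou1, -0.00873 to 0.298 for Sdf2l1, -0.00364 to 0.0478 for Ero1lb, -0.17 to 0.266 for Herpud1, -0.0141 to 0.0843 for Creld2 and -0.0185 to 0.0504 for Manf. The causes were not tested. Normexp was run on median spot signals, as mean spot signals were not used here.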
